A study of Mus musculus with 64 samples.

Results

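CD11b and CD11c, the alpha chains of a pair of beta-2 integrins, were read cell by cell as antibody counts on colonic immune cells of SCID mice with T cell transfer colitis. They are 2 of the 11 proteins of the antibody panel and were counted in 9 surface protein libraries of a series of 64 samples, of which the other 55 were not analysed here. The libraries held 131917 barcodes. Of the 130442 kept, 67775 were called negative for CD3, a part of the T cell receptor complex. These CD3- cells were the cells in which the pair was described. They were chosen by CD3 alone, with no threshold on CD11b or CD11c. The CD3 scale is centred on all antibodies of a cell, so that a high CD11b or CD11c count lowers a cell's CD3 value and bears on this choice.

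All 9 libraries came from SCID mice, which lack T and B lymphocytes of their own. All mice are labelled with transfer of CD45RBhi T cells, which are mostly naive and cause colitis in hosts without lymphocytes, and the week 0 label is the same. The first group is 1 library from week 7 of mice that also received anti-IL-12p40 from day 10; this antibody blocks p40, a chain common to interleukin-12 and interleukin-23. The other 8 libraries are untreated, 1 from each of weeks 0 to 7. Tissue was taken every 7 days, each library pooled the colons of 3 animals, and lamina propria cells sorted as EpCAM- and CD45+ were stained. The age of the animals is not stated in the labels. With 1 pool per group there is no spread between animals to set beside a difference: intervals given for shares are exact Clopper-Pearson 95% intervals and cover counting error only.

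CD11b, the product of Itgam, pairs with the shared beta-2 chain CD18 to form complement receptor 3, which binds complement-coated particles, ICAM-1 and fibrinogen. CD11c, the product of Itgax, pairs with the same chain to form complement receptor 4. In the mouse CD11b is abundant on neutrophils, monocytes and macrophages, and CD11c on dendritic cells, while many intestinal macrophages carry both. The other markers used here are Ly-6G, which marks mouse neutrophils, CD64, the high-affinity Fc receptor of macrophages, and CD103, the alpha E integrin chain of mucosal dendritic cells and T cells.

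The genes of the pair are neighbours. In RefSeq's GRCm38.p6 annotation Itgam lies on the plus strand of chromosome 7 at chr7:128062640-128118491 and Itgax on the same strand at chr7:128129526-128150657, with 11034 bases and 0 protein-coding genes between them. A promoter window of RefSeq's table is printed for each gene because the 2 proteins were carried together on some cells and apart on others, so that each promoter is of interest. They are RefSeq sequence, plus strand, 5′ to 3′, from chr7:128062390-128062689 and chr7:128129300-128129599. The Itgam window holds 250 bases before the gene's annotated start and 50 from it on, and the Itgax window 226 and 74. Both strands were searched for GAGGAA, a sequence bound by PU.1, a transcription factor of myeloid cells. Shorter or other forms of the site were not searched. Capitals mark GAGGAA or, for a match on the minus strand, TTCCTC.
Itgam: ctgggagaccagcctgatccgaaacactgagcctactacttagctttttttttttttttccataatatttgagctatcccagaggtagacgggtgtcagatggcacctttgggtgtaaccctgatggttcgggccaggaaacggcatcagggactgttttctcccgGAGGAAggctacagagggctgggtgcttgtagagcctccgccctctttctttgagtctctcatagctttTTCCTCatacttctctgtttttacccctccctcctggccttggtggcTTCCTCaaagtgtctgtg
Itgax: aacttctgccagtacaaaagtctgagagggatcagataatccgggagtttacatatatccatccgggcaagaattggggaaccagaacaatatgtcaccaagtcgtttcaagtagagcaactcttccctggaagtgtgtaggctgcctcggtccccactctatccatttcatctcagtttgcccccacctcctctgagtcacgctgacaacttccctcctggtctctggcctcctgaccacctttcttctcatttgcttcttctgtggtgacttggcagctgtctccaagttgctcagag
The Itgam window held 1 match on the plus strand and 2 on the minus strand, and the Itgax window held 0. Of all 32851 promoter windows, 28.3% held at least 1 match on either strand. A match is a description of letters, and nothing was measured at either promoter here.

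Counts were read on 2 scales. The raw antibody count per cell is one. The other is the centred log ratio (CLR), for which 1 was added to each count, the natural log taken, and the mean of these logs over the 11 antibodies of the cell subtracted. A cell was called positive above the point where the 2 components of a Gaussian mixture were equally probable, 0.707 CLR for CD11b and 0.449 CLR for CD11c. The components lay 4.25 (CD11b) and 3.05 (CD11c) units of Ashman's D apart, a distance in units of their spread. Between 1.88% and 7.19% of a library's CD3- cells lay within 0.25 of the CD11b threshold, and 5.09% to 10.2% within 0.25 of the CD11c threshold, so that CD11c calls rest on the less separated scale. The libraries had 12914066 to 28723452 antibody counts, and CD3- cells had medians of 569 to 2058 counts in total. The share of CD3- cells among all cells was lowest, 12%, in the untreated library of week 7, where 1434 such cells remained.

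T cells served as the background, since most of them should lack both proteins. In CD3+CD4+ cells of the 8 libraries that held at least 50 of them, the median was 4 to 10 CD11b counts and 3 to 11 CD11c counts. Of these cells 0.845% to 12.3% were called CD11b+ and 0.710% to 8.44% CD11c+, with the highest shares at weeks 1 and 2. Week 0 held 1 such cell and gives no background. Shares in myeloid subsets below are read against these values.

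Across the untreated weeks both proteins were common on CD3- cells, and every combination of them was present in every library. Cells with both proteins were 17.8% of CD3- cells at week 0, and 14.6%, 33.4%, 24.0%, 52.5%, 17.6%, 21.1% and 8.65% in the weeks that followed, up to week 7. Week 4 stood highest and week 7 lowest. Cells with CD11b only were 11.6%, 14.7%, 23.3%, 29.1%, 23.3%, 32.9%, 26.7% and 53.1% at weeks 0 to 7, and only at week 7 were most CD3- cells in this state. Among the states of CD3- cells, CD11c only varied least, at 22.5%, 17.6%, 12.2%, 11.5%, 16.2%, 13.5%, 12.2% and 11.4% over the same weeks. Cells with neither ranged from 8.09% at week 4 to 53.1% at week 1. Of cells with neither, CD4 was called on 8.64%, 10.4%, 16.7%, 36.4%, 63.6%, 87.3% and 61.6% at weeks 1 to 7. Week 0 was lower still, and the anti-IL-12p40 library had 13.5%. CD90.2, a marker of lymphocytes, was called on 52.5% (week 5) to 94.0% (week 6) of them in untreated libraries. The CD3- denominator thus differed in make-up between weeks, and the part of T cells in it was not tested. In the library from mice given anti-IL-12p40, 4.80% had both, 7.93% CD11b only, 17.9% CD11c only and 69.4% neither. In the untreated libraries, CD3- cells with CD11c only were 22.4% of all cells kept, T cells included, at week 0 and 1.37% at week 7. CD3- cells with CD11b only had the narrower range on this denominator, from 6.40% at week 7 to 13.7% at week 2. CD3+ cells called positive for either protein were not counted in these states. Which state varied least thus depended on the denominator.

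**Figure D1:**
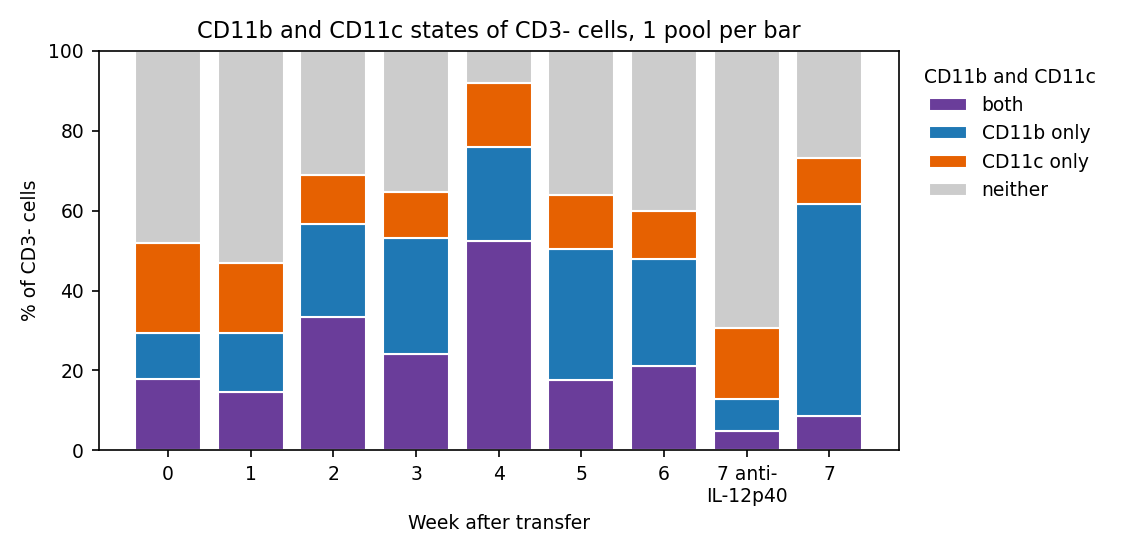
Shares of CD3- cells (y axis, percent) with both proteins, CD11b only, CD11c only and neither, by week after transfer (x axis), 1 pool of 3 animals per bar. The band of cells with both is tallest at week 4 (52.5%), the CD11b-only band at week 7 untreated (53.1%), and the band with neither at week 7 with anti-IL-12p40 (69.4%).

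CD11c was more frequent on CD11b+ than on CD11b- cells in 8 of 9 libraries, although cells with both outnumbered cells with 1 of the proteins only at week 4, where they were 57.1% of cells with either. Among CD11b+ cells CD11c was present on 60.5% at week 0, and among CD11b- cells on 31.9%, an odds ratio of 3.27. From week 1 to week 7 the odds ratio was 3.00, 3.65, 2.53, 1.13, 1.43, 2.58 and 0.385. At week 7 alone CD11c was less frequent on CD11b+ cells (14.0%) than on CD11b- cells (29.7%). With anti-IL-12p40 the odds ratio was 2.35. When Ly-6G+ cells were left out, an alternative chosen after seeing the data, it was 1.92 at week 7, 2.62 with anti-IL-12p40 and between 1.53 and 3.86 at the other weeks, above 1 in all 9 libraries. Among CD3- cells without CD90.2 it was 1.30, 0.842, 1.45, 1.38, 0.580, 0.992, 0.252 and 0.154 at weeks 0 to 7 and 0.951 with anti-IL-12p40. It was below 1 there in 6 of 9 libraries, so that the direction of the association depended on the cells counted.

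Among the 10 antibodies tested besides CD3, those whose CLR followed CD11b most closely over CD3- cells were CD64, with a median Spearman correlation over the 9 libraries of 0.501 (range -0.0252 to 0.684), and CD11c, with 0.255 (-0.0709 to 0.344). For CD11c they were CD11b (0.255) and CD64, with 0.221 (0.0115 to 0.400). These are correlations over cells of one library, which share depth and the centring, and are given as a description. On raw counts, which also carry each cell's depth, the correlation of CD11b with CD11c was 0.278 to 0.638, with a median of 0.506. On that scale the medians of CD11b were higher with CD64 (0.714), Ly-6C (0.631) and Ly-6G (0.580) than with CD11c. For CD11c the highest median on counts was that with CD11b.

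**Figure D2:**
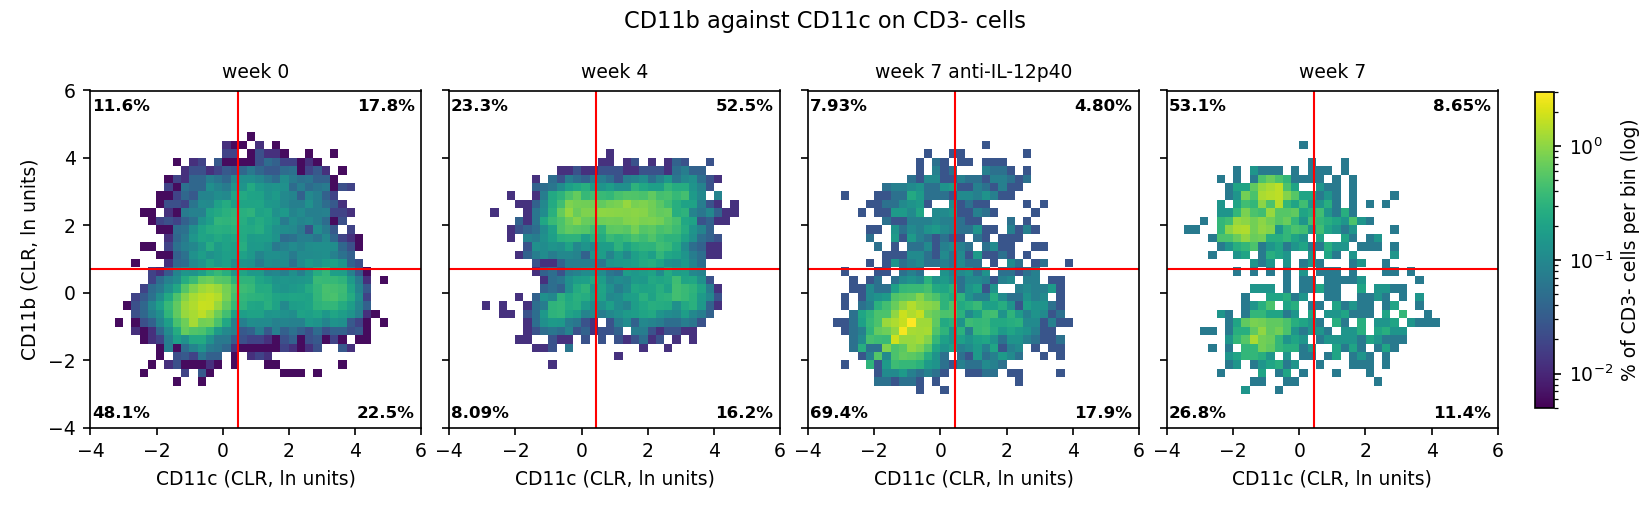
CD11b (y axis) against CD11c (x axis) on CD3- cells, both in CLR (natural log units), at week 0, week 4, week 7 with anti-IL-12p40 and week 7 untreated; colour is the percent of CD3- cells per bin on a log scale, red lines are the thresholds, and each quadrant gives its share. At week 4 the upper right quadrant holds 52.5% of cells, and at week 7 the main body of cells lies in the upper left quadrant (53.1%) untreated and in the lower left (69.4%) with anti-IL-12p40.

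CD3- cells were then divided into 4 exclusive subsets: Ly-6G+ cells, CD64+ cells without Ly-6G, CD103+ cells without Ly-6G or CD64, and cells with none of these 3 markers. The subsets differed in the pair in a fixed order. The median natural log of the ratio of CD11b counts plus 1 to CD11c counts plus 1, called the log ratio here, was higher in Ly-6G+ than in CD64+ cells, in CD64+ cells than in cells with none of the 3, and in these than in CD103+ cells, in 9 of 9 libraries for each step. The 2 antibodies need not bind or count equally, so a log ratio of 0 does not mean equal numbers of molecules, and only differences in it between cells are read. No test was made over cells, which are not replicates.

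Ly-6G+ cells carried CD11b almost without exception. In untreated libraries 98.4% to 100% were CD11b+, and with anti-IL-12p40 96.8% (61 of 63 cells). Their median CD11b count was 603, 501, 299, 768, 402, 463 and 509 from week 0 to week 6. At week 7 it was 600 with anti-IL-12p40 and 657 untreated. All of these lay far above the T cell background.

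CD11c on Ly-6G+ cells varied far more than CD11b. The CD11c+ share was 47.9%, 32.2%, 41.8%, 17.8%, 41.1%, 8.38% and 10.7% from week 0 to week 6, and 2.45% (1.41 to 3.95) in the untreated library of week 7. The 3 untreated libraries from week 5 on were lower than all 5 earlier ones. The median CD11c count of these cells was 52, 49, 24, 52, 34.5, 12, 23 and 17 at weeks 0 to 7, against 3 to 11 on T cells, so that the late values stood closer to background than those of CD11b. The median log ratio was 2.19 to 2.61 through week 4, and 3.01 to 3.60 from week 5 on. Ly-6G+ cells were few at week 0 (121 cells) and week 1 (183 cells). At week 0 they had a median of 188 Ly-6G counts and 47.9% were CD90.2+, against 336 to 1253 Ly-6G counts and 4.29% to 37.2% CD90.2+ in the later untreated libraries. CD90.2 marks lymphocytes, and the part of cells sharing a droplet in the early CD11c shares was not tested.

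CD64+ cells carried CD11b nearly as uniformly and CD11c on a varying part of the cells. In the untreated libraries 91.5% to 97.0% were CD11b+. Their CD11c+ share was 50.5%, 44.0%, 59.8%, 53.9%, 75.3%, 40.6%, 58.6% and 45.8% at weeks 0 to 7, highest at week 4. Their median CD11b count was 167 to 403 and their median CD11c count 32 to 122. The median log ratio was lowest at week 4 (0.765) and highest at week 1 (1.91). At week 0, 51.2% of CD64+ cells were CD90.2+. In the CD90.2- part of that subset at week 0, 97.1% were CD11b+ and 68.8% CD11c+. CD64+ cells supplied most cells with both proteins in every untreated library, from 57.4% at week 0 to 80.3% at week 4 by the exclusive subsets. With anti-IL-12p40 they supplied 16.9% (30 of 178 cells), and cells with none of the 3 markers 54.5%.

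CD103+ cells showed the opposite balance. From week 0 to week 7 untreated, CD11b was present on 16.2%, 10.4%, 12%, 4.88%, 10.3%, 11.4%, 7.35% and 2.71% of them. Their median CD11b count was 5 to 12 in untreated libraries, which overlaps the 4 to 10 counts of T cells. CD11c was present on 67.3%, 60.7%, 46.5%, 40.2%, 75.2%, 36.7%, 40.2% and 32.6% at weeks 0 to 7. The subset was mixed: 23.6% to 65.1% of it in untreated libraries was CD90.2+, the range of lymphocytes. In the CD90.2- part the CD11c+ share was 93.4%, 88.1%, 80.1%, 62.0%, 85.8%, 50.7%, 92.9% and 65.6% over the weeks, and the CD90.2+ part held 7.31% to 41.0%. Thus the CD90.2- part exceeded the CD90.2+ part in each of the untreated libraries. Few CD103+ cells carried CD11b without CD11c, at most 3.82% of the subset, which was at week 5.

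Cells with none of the 3 markers were 13.7% to 54.0% of untreated CD3- cells. Of them 56.4% to 79.7% had neither protein, except at week 4, where 31.6% had neither. CD11b was called on 9.47% to 32.3% of them and CD11c on 15.4% to 61.0%, both highest at week 4. Their median CD11b count was 3 to 17 in untreated libraries, against 4 to 10 on T cells. It was highest at week 6, at 17 against 8 on T cells of that library. In their CD90.2- part the CD11b+ share was 22.0%, 28.2%, 44.2%, 37.4%, 44.6%, 30.2%, 75.5% and 41.9% at weeks 0 to 7. The median of that part was 194 CD11b counts at week 6 and 4 to 18.5 at the other weeks.

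**Figure D3:**
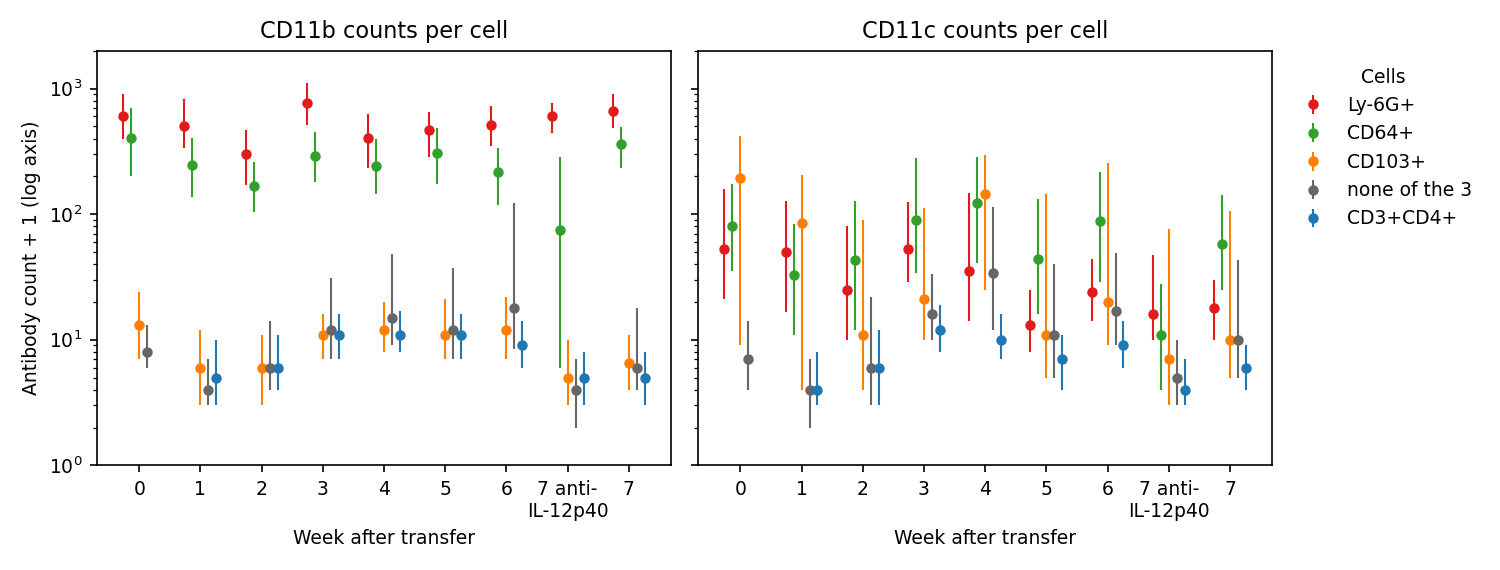
Median antibody count plus 1 per cell, with quartiles (y axis, log scale), of CD11b (left) and CD11c (right) by week after transfer (x axis) in the 4 subsets of CD3- cells and in CD3+CD4+ T cells; points stand for subsets of at least 50 cells. Ly-6G+ and CD64+ cells have 167 to 768 CD11b counts in untreated libraries and T cells 4 to 10, while for CD11c the subsets overlap widely.

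**Figure D4:**
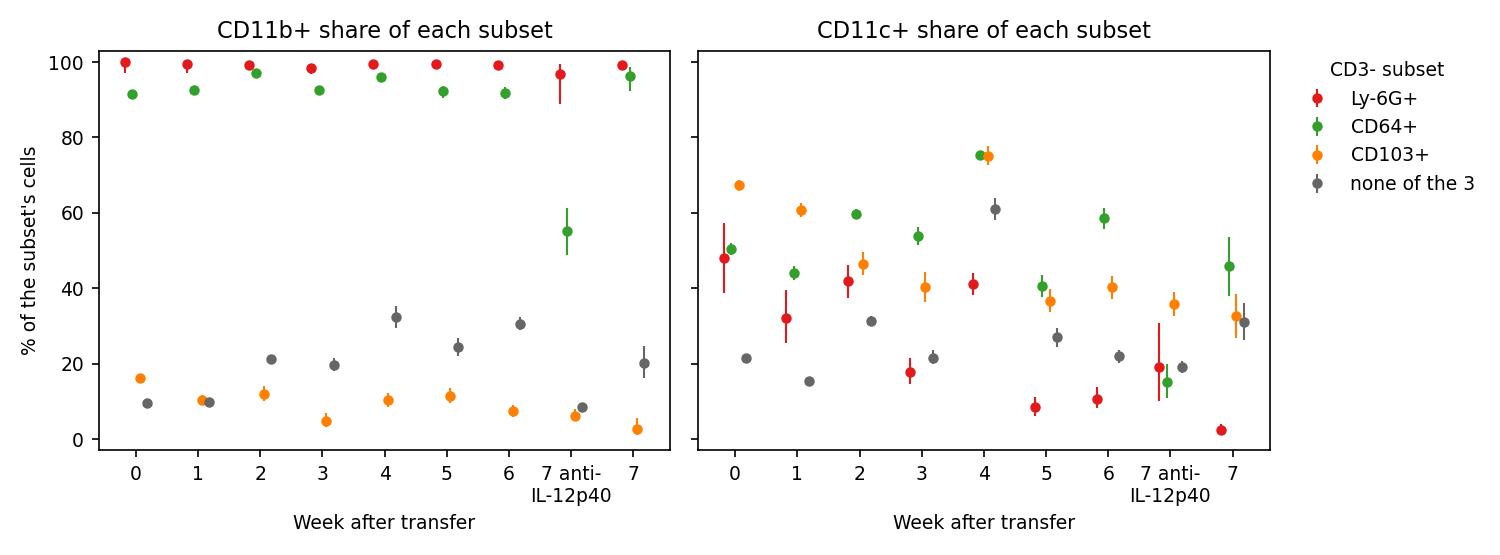
Share of each CD3- subset (y axis, percent) positive for CD11b (left) and CD11c (right) by week after transfer (x axis); bars are exact 95% intervals for counting error. The CD11b+ share of Ly-6G+ cells stays at 96.8% or above in all 9 libraries, while their CD11c+ share is 47.9% at week 0 and 2.45% at week 7 untreated; the CD11b+ share of CD64+ cells is 55.1% with anti-IL-12p40.

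The change of the pair with time after transfer was tested as a rank correlation with week over the 8 untreated libraries, with a two-sided exact permutation test that enumerates the 40320 orderings, and p was adjusted in each family by Benjamini and Hochberg. Of 19 measures of the pair, 0 (0%) passed an adjusted p of 0.05 by Spearman's rho, and 5 (26.3%) had an unadjusted exact p under 0.05. By Pearson's r 0 passed as well, and under the alternatives 0 to 3 did. The share of cells with CD11b only had rho = 0.833 (exact p = 0.0154, adjusted p = 0.0974; by Pearson, r = 0.855 with exact p = 0.00308 and 0.0584 adjusted). Without the libraries of weeks 0 and 7, farthest from the median week, rho was 0.600 (exact p = 0.242), so that the relation rests in part on those 2 libraries. The median log ratio of cells with either protein had the same rho of 0.833 (exact p = 0.0154, adjusted p = 0.0974; by Pearson, r = 0.821 with exact p = 0.00853 and 0.0811 adjusted) and 0.600 without those weeks (exact p = 0.242).

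That log ratio had medians of -0.470, 0.521, 0.941, 1.12, 0.595, 1.91, 0.972 and 3.11 at weeks 0 to 7. Among untreated libraries, CD11c counts thus matched or exceeded CD11b counts on most such cells only at week 0, where 44.9% of cells had more CD11b than CD11c counts, against 54.5% to 82.7% later. The quartiles of neighbouring weeks overlapped throughout.

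**Figure D5:**
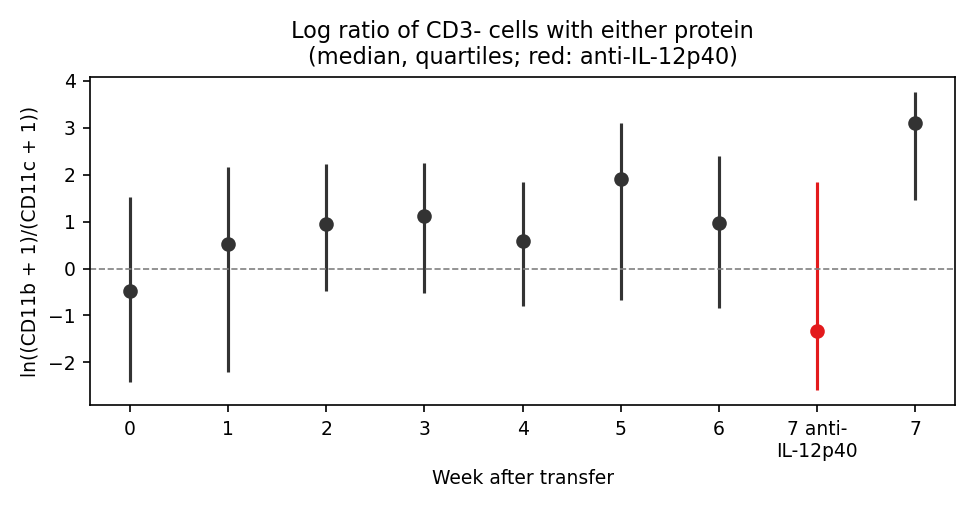
Natural log of (CD11b count + 1)/(CD11c count + 1) on CD3- cells with either protein (y axis), median with quartiles over cells, by week after transfer (x axis); red is anti-IL-12p40 and the dashed line is 0. The median is -1.33 at week 7 with anti-IL-12p40 and 3.11 at week 7 untreated, outside the -0.470 to 1.91 of weeks 0 to 6 on either side.

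The CD11c+ share of Ly-6G+ cells had rho = -0.857 (exact p = 0.0107, adjusted p = 0.0974; by Pearson, r = -0.835 with exact p = 0.0157 and 0.0996 adjusted). Without weeks 0 and 7 it was -0.657 (exact p = 0.175). The log odds ratio of the pair had rho = -0.762 (exact p = 0.0368, adjusted p = 0.174; by Pearson, r = -0.747 with exact p = 0.0258 and 0.115 adjusted), and -0.543 without those weeks (exact p = 0.297). The CD11c+ share of CD103+ cells had rho = -0.738 (exact p = 0.0458, adjusted p = 0.174; by Pearson, r = -0.630 with exact p = 0.0988 and 0.209 adjusted), and -0.600 without them (exact p = 0.242). None of these passed adjustment.

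The other states gave weaker relations. Cells with CD11c only had rho = -0.643 (exact p = 0.0962, adjusted p = 0.203; by Pearson, r = -0.721 with exact p = 0.0388 and 0.115 adjusted), which was -0.143 without weeks 0 and 7. Cells with neither had rho = -0.50 (exact p = 0.216, adjusted p = 0.373; by Pearson, r = -0.480 with exact p = 0.230). Cells with both had -0.190 (exact p = 0.665, adjusted p = 0.742; by Pearson, r = -0.107 with exact p = 0.820). The share with both among cells with either had -0.286 (exact p = 0.501, adjusted p = 0.680; by Pearson, r = -0.387 with exact p = 0.351).

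In the panel as a whole, 0 of 10 antibodies (0%) passed for mean CLR by Spearman's rho (3, or 30.0%, had an unadjusted exact p under 0.05, and 2, or 20.0%, passed by Pearson's r), and 1 of 10 (10.0%), Ly-6G, passed for the share of positive cells. For that share 3 (30.0%) had an unadjusted exact p under 0.05 and 2 (20.0%) passed by Pearson's r. Mean CD11b CLR had rho = 0.429 (exact p = 0.299, adjusted p = 0.427; by Pearson, r = 0.367 with exact p = 0.374) and mean CD11c CLR -0.667 (exact p = 0.0831, adjusted p = 0.208; by Pearson, r = -0.436 with exact p = 0.285). The CD11b+ share had rho = 0.50 (exact p = 0.216, adjusted p = 0.309; by Pearson, r = 0.603 with exact p = 0.113) and the CD11c+ share -0.50 (exact p = 0.216, adjusted p = 0.309; by Pearson, r = -0.299 with exact p = 0.501).

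Ly-6G+ cells moved with these measures. They were 0.727% of CD3- cells at week 0 and 45.5% at week 7, and made up 3.27% of cells with CD11b only at week 0 and 82.8% at week 7. With Ly-6G+ cells left out, as an alternative chosen after seeing the data, rho was 0.381 for CD11b only (exact p = 0.360, adjusted p = 0.761) and 0.357 for the log ratio (exact p = 0.389, adjusted p = 0.761). Without them cells with CD11b only were 16.8% of the CD3- cells at week 7. With all cells kept as the denominator, T cells included, the share of CD3- cells with CD11b only was lowest at week 7 (6.40%). The trend of that share was not tested. Since each value is a share of one pool, more cells of one subset and fewer of the others cannot be told apart. Median counts per cell over all cells also had rho = 0.643 with week (exact p = 0.0962; Pearson r = 0.637, exact p = 0.0909). With each cell thinned to 200 counts, rho was 0.667 for CD11b only (exact p = 0.0831, adjusted p = 0.305) and 0.643 for the log ratio (exact p = 0.0962, adjusted p = 0.305).

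The comparison of week 7 with and without anti-IL-12p40 describes how the pair differed between these libraries. It is 1 pool against 1, so no test was possible, and treatment cannot be told apart from other differences between the pools. A difference was called large where 3 conditions held: a ratio of shares of at least 1.5 in one direction, intervals without overlap, and a treated share beyond the range of untreated weeks 5 to 7. By this rule 9 of 13 shares of the pair (69.2%) were large, 3 higher (23.1%) and 6 lower (46.2%), beside 8 of 10 antibodies of the panel (80.0%, with 3 or 30.0% higher and 5 lower), so the pair's share was not above that of the panel.

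CD11b was carried by far fewer CD3- cells with anti-IL-12p40. It was present on 12.7% (11.7 to 13.8) of 3708 CD3- cells in the treated library and on 61.8% (59.2 to 64.3) of 1434 in the untreated one, a ratio of 0.206. CD11c differed little: 22.7% (21.4 to 24.1) of treated cells and 20.0% (18.0 to 22.2) of untreated cells carried it, a ratio of 1.13 with overlapping intervals, and 0.599 to 1.63 under the alternatives. The treated value for CD11b lay below the 47.8% to 61.8% of untreated weeks 5 to 7 and that for CD11c within their 20.0% to 33.3%.

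By joint state, cells with CD11b only were 7.93% (7.08 to 8.85) of treated and 53.1% (50.5 to 55.7) of untreated CD3- cells, a ratio of 0.149. Cells with both were 4.80% (4.13 to 5.54) of treated and 8.65% (7.24 to 10.2) of untreated cells, a ratio of 0.555. Cells with CD11c only were 17.9% (16.7 to 19.2) of treated and 11.4% (9.77 to 13.1) of untreated cells, a ratio of 1.58, which was 0.801 without centring and 0.874 without Ly-6G+ cells. Cells with neither were 69.4% (67.9 to 70.8) of treated and 26.8% (24.6 to 29.2) of untreated cells, a ratio of 2.58. All 4 states met the rule, 2 higher and 2 lower. Among cells with either protein, both were present on 15.7% (13.6 to 17.9) of treated and 11.8% (9.93 to 13.9) of untreated cells, a ratio of 1.33 that was not large. The median log ratio was -1.33 (quartiles -2.60 and 1.84) in treated and 3.11 (1.46 and 3.77) in untreated cells.

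Part of these differences depends on which cells form the denominator. CD90.2+ cells, a marker of lymphocytes, were 76.3% of treated and 37.7% of untreated CD3- cells, while Ly-6G was found on 1.70% of treated and 45.5% of untreated ones. CD4+ cells were 13.2% of treated and 37.8% of untreated CD3- cells. Among CD3- cells without CD90.2, CD11b only was present on 21.4% (18.8 to 24.3) of 877 treated and 68.4% (65.3 to 71.5) of 893 untreated cells, and both on 13.0% (10.8 to 15.4) of treated and 13.4% (11.3 to 15.9) of untreated cells. Thus the difference in CD11b only was also seen there and that in cells with both was not. Among CD3- cells without Ly-6G, CD11b only was present on 6.72% (5.93 to 7.58) of treated and 16.8% (14.2 to 19.6) of untreated cells, and CD11c only on 18.2% (17.0 to 19.5) of treated and 20.8% (18.0 to 23.9) of untreated cells, with overlapping intervals. With all cells kept as the denominator, T cells included, CD3- cells with CD11b only were 2.36% (2.10 to 2.65) in the treated and 6.40% (5.97 to 6.85) in the untreated library. CD3- cells with both were 1.43% (1.23 to 1.66) of all treated and 1.04% (0.867 to 1.24) of all untreated cells. CD3- cells with CD11c only were 5.34% (4.95 to 5.75) of all treated and 1.37% (1.17 to 1.59) of all untreated cells.

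Within subsets, the largest relative difference was in CD11c on Ly-6G+ cells, 19.0% (12 of 63 cells, 10.2 to 30.9) in the treated and 2.45% (16 of 652 cells, 1.41 to 3.95) in the untreated library. The median CD11c count of these cells was 15 in treated and 17 in untreated mice, so that the counts of the typical cell did not show this difference. The CLR medians were -0.846 in treated and -1.12 in untreated cells, both below the threshold. The ratio of shares was 7.76, and 2.82 to 12.1 under the alternatives. The treated interval included the 10.7% of untreated week 6, and untreated weeks 0 to 4 had 17.8% to 47.9%. CD90.2 was called on 30.2% of treated and 19.9% of untreated Ly-6G+ cells, and the part of cells sharing a droplet was not tested. CD11b was at 96.8% in treated and 99.2% in untreated Ly-6G+ cells, a ratio of 0.976. That ratio was 0.140 with per-library thresholds and 0.647 with counts scaled to the median total of the library, and under either setting it met the rule.

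CD64+ cells differed in both proteins. CD11b was present on 55.1% (48.9 to 61.2) of 265 treated and 96.4% (92.3 to 98.7) of 166 untreated cells, a ratio of 0.572. CD11c was present on 15.1% (11 to 20.0) of treated and 45.8% (38.0 to 53.7) of untreated cells, a ratio of 0.330, against 40.6% to 75.3% in all untreated weeks. With counts scaled to the median total that ratio was 1.28, in the other direction, and with per-library thresholds 0.743, no longer large. The 119 treated CD64+ cells without CD11b had a median of 9 CD64 counts and 829 CD90.2 counts, and 68.1% were CD90.2+. The 146 with CD11b had a median of 95.5 CD64 counts, and 21.9% were CD90.2+. In the CD90.2- part, CD11b was present on 75.0% (67.3 to 81.7) of 152 treated and 96.3% (92.2 to 98.6) of 164 untreated cells, and CD11c on 18.4% (12.6 to 25.5) of treated and 45.7% (37.9 to 53.7) of untreated cells. The median CD11c count of that part was 12 in treated and 57 in untreated mice. The part of cells near the CD64 threshold in the CD11b difference was not tested.

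CD103+ cells met the rule for neither protein, and under the alternatives the ratio fell on either side of 1 for both, at 0.643 to 1.62 for CD11c and 0.934 to 2.44 for CD11b. CD11c was present on 35.8% (32.6 to 39.0) of 878 treated and 32.6% (26.9 to 38.6) of 258 untreated cells, and CD11b on 6.15% (4.65 to 7.95) of treated and 2.71% (1.10 to 5.51) of untreated cells. In their CD90.2- part the CD11c+ share was 65.3% (59.0 to 71.2) in treated and 65.6% (54.8 to 75.3) in untreated cells. Cells with none of the 3 markers carried CD11b on 8.43% (7.37 to 9.59) of treated and 20.1% (16.1 to 24.6) of untreated cells, and CD11c on 19.0% (17.5 to 20.6) of treated and 31% (26.2 to 36.1) of untreated cells. Both met the rule, but not after thinning to 200 counts, with ratios of 0.746 for CD11b and 0.895 for CD11c. CD90.2+ cells were 82.7% of this subset in treated and 67.3% in untreated mice.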

How the data were processed

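Per the labels' protocols, 11 TotalSeq antibodies were used on sorted lamina propria cells, and each sample was loaded at about 16000 cells. The authors deposited raw, whole-number antibody counts for every barcode. Per the submitters' processing notes, mm10, Seurat 4.1.1 and Cell Ranger 6.0.2 were used, without stated roles. The selection of barcodes is not stated, and 3 libraries held more barcodes than cells loaded.

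Left out were barcodes under 50 counts and, in each library, the highest 1% by total. Doublets were not removed. Library pairs shared 30 to 110 barcodes. For each antibody 1 mixture of 2 Gaussian components was fitted to the CLR of 2000 cells per library. Subsets under 50 cells were not tested. The steps were tested on simulated data. Alternatives were other scalings, thresholds, filters and denominators, thinning to 200 counts, leaving out each library, and Pearson's r. Besides CD11b, CD11c and the gating markers, the antibodies most like each were to be named. CD90.2, CD4 and Ly-6C are outside that rule and were named after their values were seen. Trends are named for measures over all CD3- cells and where the unadjusted p was under 0.05. Members, lists and tests were chosen with earlier results of these data known. Tools were Python 3.11.15, numpy 2.4.6, scipy 1.17.1 and pandas 2.3.3; scikit-learn 1.9.0 fitted the mixtures and matplotlib 3.10.9 drew the figures.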

Additional observations from a re-analysis of the deposited data

How the results depend on the processing

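No paired analysis was possible because each group is 1 pool and the labels give no replicate numbers. Counts of calls were small and moved with the processing. For mean CLR by antibody, 0 calls became 1 with a lower CD3 threshold and in CD3-CD90.2- cells, and 2 by Pearson's r. For the share positive, 1 call became 0 with scaled counts (each cell brought to its library's median total), per-library thresholds, no barcode filter, the top 5% left out, or CD3-Ly-6G- cells. It became 3 with a lower CD3 threshold, 4 in CD3-CD4- cells, 2 by Pearson's r, and 0 to 2 with 1 library left out. For the pair, 0 calls became 1 with scaled counts, with a lower CD3 threshold and in CD3-CD90.2- cells. They became 2 without centring, with lower CD11b and CD11c thresholds and in CD3-CD4- cells, and 3 with per-library thresholds. The cause was not tested. With 1 library left out 0 remained. The trend of CD11b only kept its direction under all 14 alternatives and all 8 libraries left out, with rho 0.381 to 0.976 (lowest adjusted p = 0.00754). The CD11c+ share of Ly-6G+ cells kept its direction too, with rho -0.952 (no centring, adjusted p = 0.0217) to -0.476. Each of these alternatives took CD3- cells or a part of them as the denominator. Of all cells kept, CD3- cells with CD11b only were 11.5%, 13.6%, 13.7%, 11.2%, 10.4%, 9.41%, 11.9% and 6.40% at weeks 0 to 7. This share was lowest at week 7, and its trend was not tested.

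The following trends turned direction or had a rho of 0.00, none past the threshold. Mean CD11c CLR had rho 0.262 with scaled counts and 0.0952 without centring, and mean CD11b CLR -0.190 in CD3-Ly-6G- cells. The CD11c+ share had 0.0476 with per-library thresholds and 0.0714 in CD3-CD4- cells. Cells with both had 0.286 with scaled counts, 0.143 with per-library thresholds, and 0.00 with a lower CD3 threshold and in CD3-CD4- cells. Their range with 1 library left out was -0.464 to 0.214. Cells with CD11c only had 0.0476 without centring. The share with both among cells with either had 0.0238 with per-library thresholds and -0.464 to 0.0714 with 1 library left out, positive only without week 7. The CD11c+ share of CD103+ cells had 0.0714 with a lower CD3 threshold and 0.167 in CD3-CD4- cells.

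With anti-IL-12p40 the number of large differences was 6 to 9, and that of CD11b and of CD11b only stayed large and lower throughout. Ratios crossed 1 for CD11c on CD64+ cells with scaled counts (1.28). On CD103+ cells they crossed it for CD11c (range 0.643 to 1.62; 1.10 as reported) and CD11b (0.934 to 2.44; 2.27 as reported), neither of them large as reported. On Ly-6G+ cells the CD11b ratio was 0.140 with per-library thresholds and 0.647 with scaled counts. Without centring they crossed it for the CD11c+ share (0.599), CD11c only (0.801) and both among either (0.775). The CD11c+ share was also below 1 with scaled counts (0.904), the top 5% left out (0.937), a lower CD3 threshold (0.953) and CD3-CD4- cells (0.856). In CD3-Ly-6G- cells they crossed it for the CD11c+ share (0.657), CD11c only (0.874) and both among either (0.575). Cells with both were no longer large after thinning to 200 counts (0.852) and in CD3-CD90.2- cells (0.967), nor was CD11c only with higher thresholds (1.41), scaled counts (1.21), the top 5% left out (1.24), a lower CD3 threshold (1.40) and CD3-CD4- cells (1.30). CD3-Ly-6G- cells were chosen as a denominator after seeing the data.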
